A study of Mus musculus with 30 samples.

Results

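Lipid droplets store triglyceride in the cell, and the genes described here encode the proteins that coat them and the enzymes that empty them. They are 4 perilipins (Plin2, Plin3, Plin4 and Plin5), the 3 CIDE genes (Cidea, Cideb and Cidec), adipose triglyceride lipase (Pnpla2), its inhibitor G0s2 and monoacylglycerol lipase (Mgll). The 10 genes were picked by name, with earlier results of these data known. All 10 had at least 1 probe set among the 18193 genes with an unambiguous symbol on the array. Where a gene had several probe sets, the one with the highest mean over all 30 arrays was taken.

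Affymetrix mouse arrays were used to read transcripts of the lung and the liver of fetal CD-1 mice, which are outbred. Their mothers had received the potassium salt of PFOS (perfluorooctane sulfonate), a fluorinated surfactant that persists in the body. Dams were dosed by mouth on each of gestation days 1 to 17 with 0, 5 or 10 mg/kg/day in 0.5% Tween 20, and the unexposed dams received the Tween 20 solution alone; 5 and 10 mg/kg/day are called the lower and the higher dose here. Tissues were taken on gestation day 18. Each array carried RNA pooled from 3 fetuses of 1 litter, with 5 litters for each of 6 combinations of tissue and dose, so that values vary between litters and not between single fetuses. The labels do not say whether a lung and a liver array with the same number came from 1 litter.

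A lipid droplet has a core of triglyceride and sterol ester under a single layer of phospholipid, and perilipins sit on that surface and limit the access of lipases. Plin2 is the main coat protein of droplets in hepatocytes, Plin3 moves onto young droplets from the cytosol, Plin4 coats small droplets mostly in fat and muscle, and Plin5 is found in tissues that oxidise fat, where it also ties droplets to mitochondria. Cidea and Cidec drive the fusion of droplets into larger ones in fat cells, and Cideb acts in hepatocytes on droplets and on the lipid loading of lipoproteins. Pnpla2 removes the first fatty acid from a stored triglyceride, G0s2 binds and blocks Pnpla2, and Mgll removes the last fatty acid from the glycerol. Several of these genes, Plin2 among them, are known targets of the fatty acid receptor PPAR-alpha, a nuclear receptor that binds as a pair with RXR to repeats of the half-site AGGTCA.

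The start-site stretches of the 3 members called in liver are shown because these genes rose in exposed liver. They come from RefSeq, build GRCm38.p6; RefSeq promoters matched 9 of the 10 members. The arrays themselves carry no build. Each stretch is written along the gene's own strand and ends at the base before its outermost RefSeq start, and capitals mark the half-site AGGTCA or its reverse complement TGACCT. Plin2 lies at chr4:86670218-86670309 (minus strand), Plin5 at chr17:56117607-56117798 (minus strand) and G0s2 at chr1:193273189-193273438 (minus strand).
Plin2: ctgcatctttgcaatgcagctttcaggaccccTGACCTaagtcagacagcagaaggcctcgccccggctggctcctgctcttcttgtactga
Plin5: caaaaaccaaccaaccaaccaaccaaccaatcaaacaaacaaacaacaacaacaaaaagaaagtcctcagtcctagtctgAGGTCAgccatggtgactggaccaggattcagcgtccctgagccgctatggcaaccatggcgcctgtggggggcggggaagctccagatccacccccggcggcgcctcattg
G0s2: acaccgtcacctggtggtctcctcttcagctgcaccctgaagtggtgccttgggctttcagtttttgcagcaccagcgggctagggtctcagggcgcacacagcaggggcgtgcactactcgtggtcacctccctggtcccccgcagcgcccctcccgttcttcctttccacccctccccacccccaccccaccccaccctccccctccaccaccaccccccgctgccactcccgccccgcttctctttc
In the 250 bases before each start, searched on both strands, 14.03% of all 32817 RefSeq promoters held AGGTCA. Among the 9 matched members only Plin2 and Plin5 did, at -218 to -213 on the opposite strand and at -170 to -165 on the gene's strand, counted from a RefSeq start that in both genes lies inside the outermost one, so that only the outer end of each 250-base window is printed. The 14.03% counts start sites, of which the 9 members had 12, with 1 matching site each in Plin2 and Plin5. These are too few to tell from the share over all promoters. The DR1 element, 2 copies of AGGTCA with 1 base between them, was in 11 of the 32817 promoters (0.03%) and in none of the members'. These letters describe the windows and say nothing of binding.

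The values are log2 levels as deposited, and the dimmest genes were not tested: a member entered the tests of a tissue only if at least 5 of its 15 arrays read it above their own 40th percentile (4.16 to 4.23 over all arrays). Tests are two-sided limma fits, and a gene is called at a Benjamini-Hochberg adjusted p under 0.05 over all genes tested. In liver 8 of the 10 members were tested, and in lung 7. Arrays of a group correlated with r from 0.990 to 0.995, and the number of litters limits the precision. All 12 hepatocyte markers on the array lay above the 40th percentile on every liver array and the 7 alveolar type 2 markers on every lung array. So did 11 or 12 hepatocyte markers on each lung array and 5 to 7 alveolar type 2 markers on each liver array. The summed levels were apart. Hepatocyte sums were 16.58 to 16.64 in unexposed liver and 12.69 to 14.12 in unexposed lung. Alveolar type 2 sums were 9.06 to 9.33 and 14.46 to 14.62. Unexposed liver litters 2, 3 and 5 stood apart by stomach markers, led by Cym, a stomach protease, with summed levels of 11.63, 10.26 and 9.79 against 8.69 to 8.96 on the exposed liver arrays. Lung litter 1 of the unexposed and of the lower dose group carried the most hepatocyte marker signal of its group.

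In unexposed litters the coat genes were unequally placed between the tissues. Plin5 and Cideb were far higher in liver than in lung, Plin2 and Plin4 were somewhat higher in liver, and Plin3, Pnpla2, G0s2 and Mgll were higher in lung. All 8 tested members were thus called, 4 in each direction, where 83% of 13856 genes were called, 42.6% higher and 40.4% lower in liver, so that a call alone sets no member apart. Comparisons between the tissues tested each gene that passed the filter in either tissue. Plin4 passed only in liver, the tissue where it was higher, so its call is not free of the filter.

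Plin5, the coat protein of fat-oxidising tissues, read 8.54, 8.56, 8.52, 9.01 and 8.90 in unexposed liver litters 1 to 5. In unexposed lung it read 4.54, 4.43, 4.55, 4.35 and 4.54. The lung values sit just above the 40th percentile, and no litter of one tissue came near the other. The difference was 4.23 on the log2 scale (SE 0.13, limma adjusted p = 1.26e-21), or 18.7-fold. Its neighbour on chromosome 17, Plin4, with no RefSeq gene between them, was dim in both tissues, at 4.32 to 4.51 in unexposed liver and 3.74 to 4.19 in unexposed lung, ranges that did not overlap.

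Cideb, the CIDE gene of hepatocytes, read 9.54, 9.42, 9.48, 9.49 and 9.33 in unexposed liver and 5.25, 4.69, 4.71, 4.92 and 4.74 in unexposed lung, a difference of 4.59 (SE 0.12). Within each lung group the highest Cideb value was in the litter with the highest summed hepatocyte markers: litter 1 without PFOS (Cideb 5.25, markers 14.12), litter 1 at the lower dose (5.42 and 14.31) and litter 5 at the higher dose (5.29 and 13.86). The part of liver RNA in the lung values of Cideb was not tested. Without litter 1 of the unexposed and lower dose lung groups the counts of 4 higher and 4 lower members were the same.

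Plin2 lay 0.43 higher in unexposed liver than in lung (SE 0.07), while Plin3, its close relative, lay 0.34 lower. The lipase Pnpla2 was 0.39 lower in liver, its inhibitor G0s2 0.46 lower, and Mgll 0.61 lower. Averaging both probe sets of Pnpla2, of which the second was dim, left a difference of -0.11 (limma adjusted p = 0.0935), which is not called. The other Mgll probe sets differed by -0.52 and -0.50 and, for a dim one, by 0.13.

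**Figure D1:**
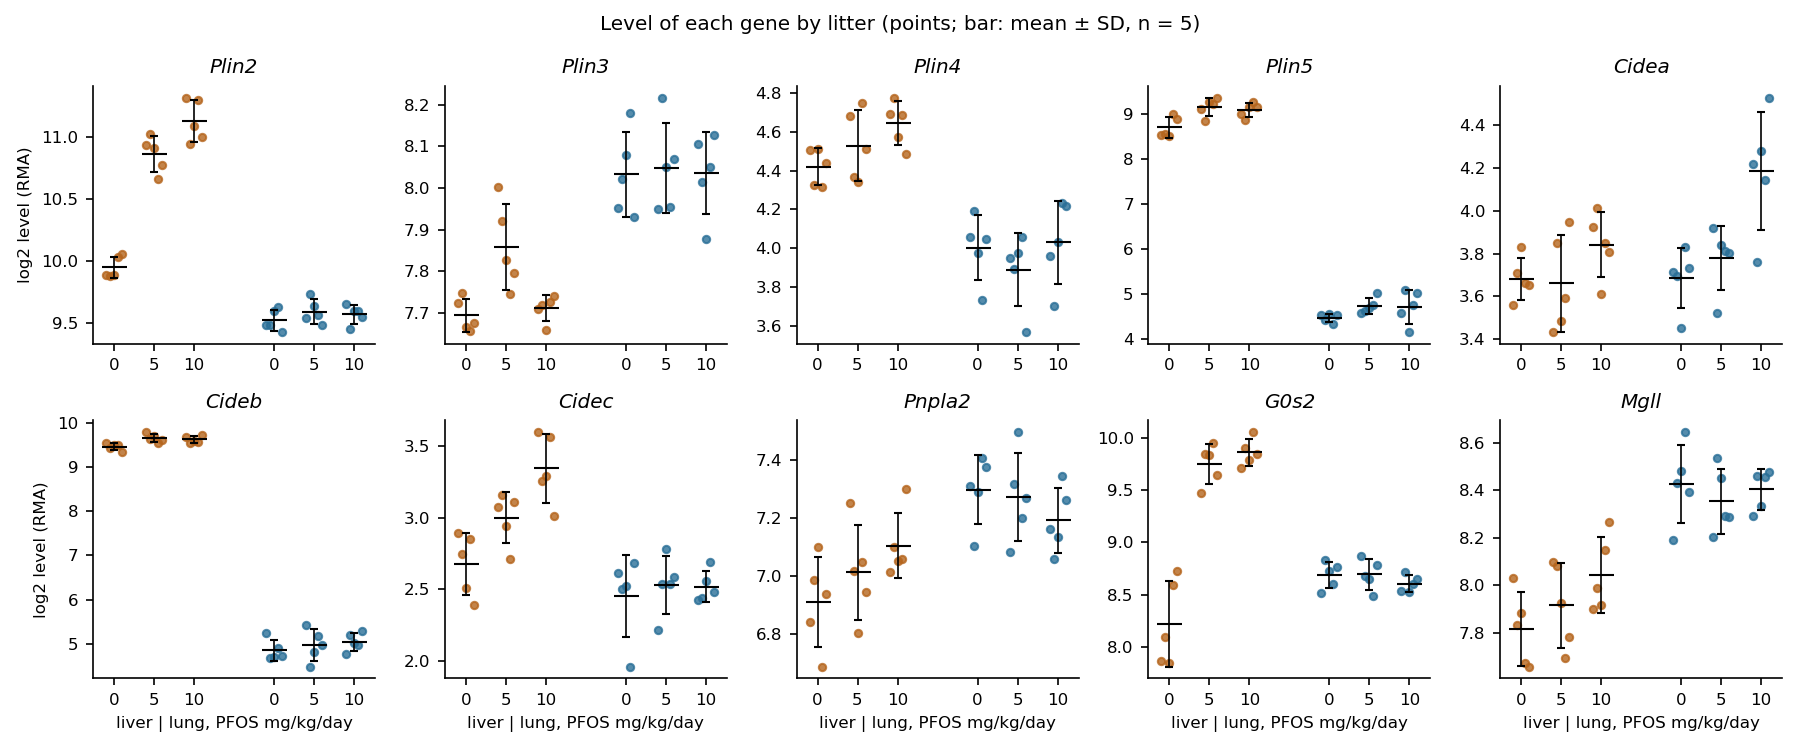
Log2 level of each of the 10 genes on every array, by tissue and PFOS dose, with 1 point per litter and bars for the group mean ± SD (n = 5); each panel has its own axis. Plin2 and G0s2 rise from the unexposed to the exposed liver litters with no overlap, while the lung groups of both genes overlap.

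With PFOS, 3 of the 8 members tested in liver rose and none fell, at both doses. They were G0s2, Plin2 and Plin5. Of 13269 genes, 6.07% were called at the lower dose (4.26% higher, 1.81% lower) and 10.5% at the higher dose (5.3% higher, 5.22% lower). The median change over the 8 tested members was 0.18 and 0.23, beside -0.01 and -0.02 over all genes tested. As the members were chosen with earlier results of these data known, these shares and medians do not test them as a set.

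G0s2, the inhibitor of adipose triglyceride lipase, moved most. In unexposed liver litters 1 to 5 it read 7.86, 8.09, 7.84, 8.59 and 8.73. At the lower dose it read 9.48, 9.85, 9.84, 9.95 and 9.64. The higher dose gave 9.72, 9.91, 9.79, 10.06 and 9.85. Every exposed litter lay above every unexposed one, and the unexposed litters 4 and 5 were the highest of theirs. The change was 1.53 at the lower dose (SE 0.16, 95% interval 1.20 to 1.86, limma adjusted p = 1.34e-05), or 2.88-fold, higher than the unexposed mean in 5 of 5 litters. At the higher dose it was 1.64 (SE 0.16, 95% interval 1.31 to 1.97, limma adjusted p = 3.88e-06), or 3.12-fold, again in 5 of 5 litters.

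Plin2, the main hepatocyte coat protein, was the second. It read 9.89, 9.88, 9.89, 10.03 and 10.05 in unexposed liver litters. At the lower dose the litters read 10.94, 11.03, 10.92, 10.66 and 10.78, and at the higher dose 11.32, 10.95, 11.09, 11.30 and 11.00. The unexposed litters spanned a narrow range, and every exposed litter lay above it. Plin2 rose by 0.91 at the lower dose (SE 0.09, limma adjusted p = 7.65e-06) and by 1.18 at the higher dose (SE 0.09, limma adjusted p = 2.40e-07), or 1.88-fold and 2.27-fold, with all 5 litters above the unexposed mean at each dose. Among all 13269 genes tested, the change of Plin2 stood at percentile 99.3 and 99.5, and that of G0s2 at 99.8 and 99.8.

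Plin5 rose less. Against its unexposed liver levels given above, it read 9.11, 8.85, 9.28, 9.24 and 9.36 at the lower dose and 9.01, 8.87, 9.15, 9.26 and 9.15 at the higher dose. Unexposed litters 4 and 5 overlapped the exposed ones at both doses. The change was 0.46 (SE 0.12, limma adjusted p = 0.0253) and 0.38 (SE 0.12, limma adjusted p = 0.0449), with all 5 litters of each dose above the unexposed mean. Its second probe set gave 0.61 and 0.52.

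The Plin5 call depended on single litters. At the lower dose it was lost without unexposed litter 1, 2 or 3 (limma adjusted p = 0.0679, 0.0700 and 0.0647) and without exposed litter 3, 4 or 5 (0.0594, 0.0564 and 0.0730). At the higher dose it was lost without unexposed litter 1, 2 or 3 (0.102, 0.107 and 0.103) and without exposed litter 1, 3, 4 or 5 (0.0597, 0.0971, 0.103 and 0.0928). The change stayed between 0.34 and 0.44 in these fits. Without the 3 unexposed litters high in stomach markers the Plin5 changes were 0.39 and 0.31 (limma adjusted p = 0.257 and 0.322), and the count of members called fell to 2 at each dose, Plin2 (0.90 and 1.17) and G0s2 (1.53 and 1.64). That fit kept only unexposed litters 1 and 4. Without unexposed litters 4 and 5, left out after their high values were seen, the counts were 3 and 3, and Plin5 changed by 0.63 and 0.55.

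**Figure D2:**
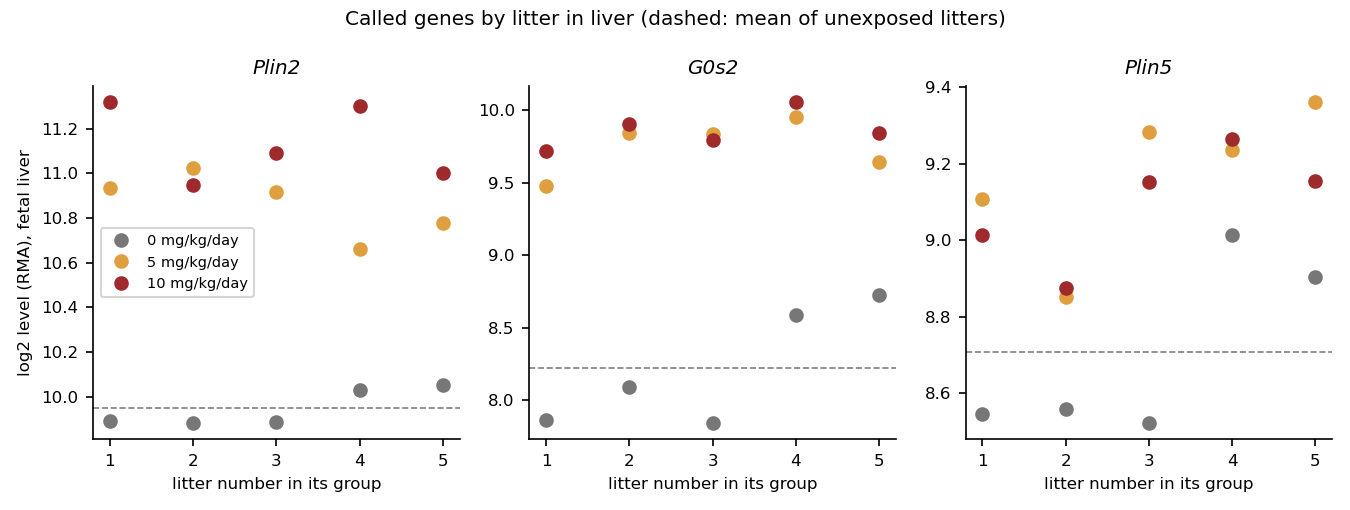
Log2 level of Plin2, G0s2 and Plin5 in each fetal liver litter, by litter number within its dose group, with the mean of the unexposed litters as a dashed line. Equal numbers do not mark shared litters, as litters of different doses came from different dams. Unexposed litters 4 and 5 are the highest unexposed litters for all 3 genes, and they overlap exposed litters for Plin5 only.

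The remaining perilipins passed no test. For Plin3 the change was 0.16 at the lower dose (limma adjusted p = 0.0929) and 0.02 at the higher. Its litters read 8.00, 7.92, 7.83, 7.75 and 7.80 at the lower dose and 7.71, 7.72, 7.66, 7.73 and 7.74 at the higher dose, 2 ranges that did not overlap, with the higher dose lower. The difference between the doses was -0.15 and was not called (limma adjusted p = 0.571). Within each liver array the gap between Plin2 and its relative Plin3 was on average 0.75 and 1.17 wider than in unexposed litters. Plin4 stayed dim, with changes of 0.11 and 0.22 that were not called.

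Of the CIDE genes, Cideb was the only one above the filter in liver. It read 9.78, 9.64, 9.69, 9.54 and 9.61 at the lower dose and 9.67, 9.55, 9.59, 9.56 and 9.72 at the higher dose. The higher dose did not overlap the unexposed litters, yet the changes of 0.20 and 0.16 (SE 0.06 each) missed the threshold (limma adjusted p = 0.0711 and 0.111).

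Cidea and Cidec lay below the 40th percentile on all 15 liver arrays. Cidec, the droplet fusion gene, read 2.89, 2.75, 2.51, 2.85 and 2.39 in unexposed liver, 3.08, 3.16, 2.94, 2.71 and 3.11 at the lower dose, and 3.60, 3.26, 3.29, 3.57 and 3.02 at the higher dose. The higher dose did not overlap the unexposed litters. With no filter, over 18193 genes, the change of Cidec was 0.67 at the higher dose (SE 0.13, limma adjusted p = 0.00316) and 0.32 at the lower (limma adjusted p = 0.198). These values are all too dim for the filter. For Cidea the same fits gave -0.02 at the lower dose and 0.16 at the higher, neither called.

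The lipases themselves passed no test in liver. Pnpla2 read 6.84, 6.99, 7.10, 6.69 and 6.94 in unexposed litters, 7.25, 7.02, 6.80, 7.05 and 6.94 at the lower dose, and 7.01, 7.10, 7.05, 7.06 and 7.30 at the higher dose. The ranges overlapped, and the changes were 0.10 (95% interval -0.09 to 0.29) and 0.19 (95% interval 0.0034 to 0.39), with limma adjusted p = 0.595 and 0.200. The changes of Mgll were 0.10 and 0.23 (limma adjusted p = 0.639 and 0.170), and those of its other 3 probe sets lay between -0.03 and 0.21. Within each liver array the gap between the inhibitor G0s2 and the lipase Pnpla2 was on average 1.43 and 1.45 wider than in unexposed litters. In lung it was 0.03 and 0.02 wider.

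**Figure D3:**
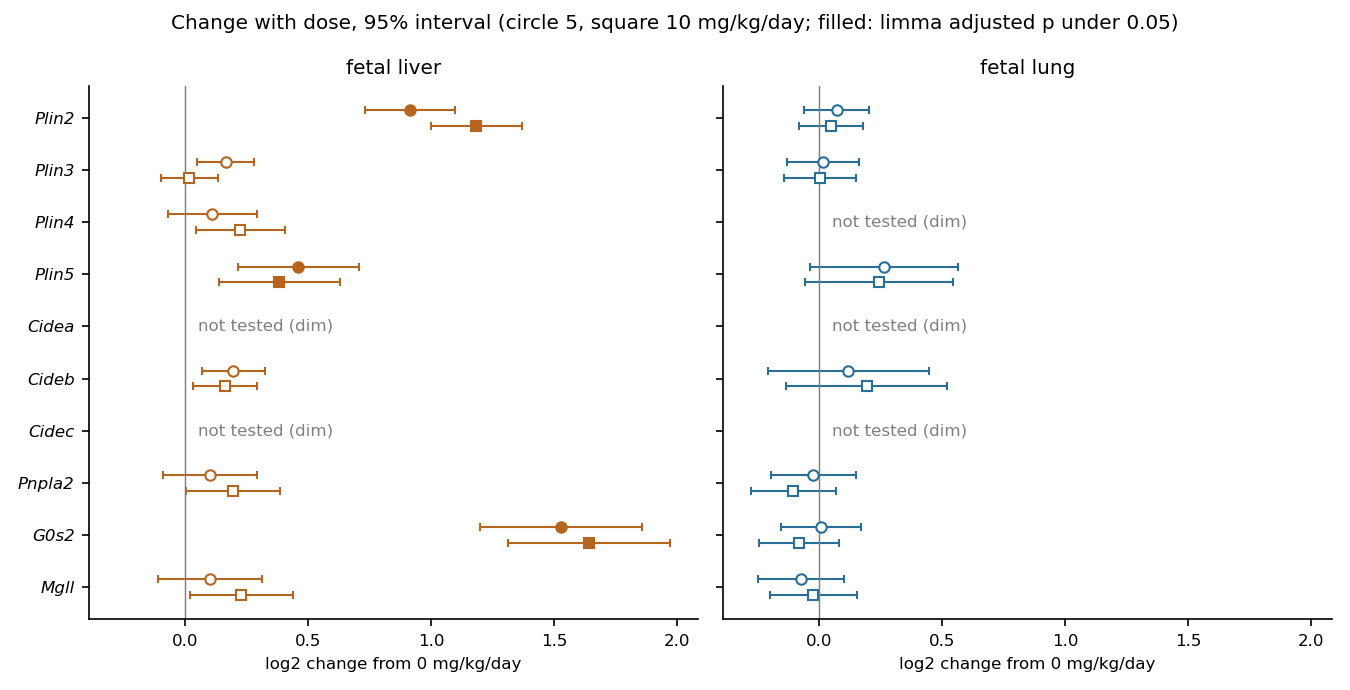
Change from the unexposed litters on the log2 scale, with 95% intervals, for each tested gene in liver and lung at both doses. In liver G0s2 (1.53 and 1.64) and Plin2 (0.91 and 1.18) lie far to the right of all others, and every lung interval includes 0.

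Between the doses no member was called in liver, where 0.00754% of 13269 genes were called (1 gene, and 1035 at an unadjusted p under 0.05). Plin2 lay 0.27 higher at the higher dose in the mean, with all 5 litters above the mean of the lower dose but overlapping ranges (limma adjusted p = 0.493). G0s2 lay 0.11 higher, with a 95% interval of -0.22 to 0.44.

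The summed hepatocyte markers of every higher-dose liver litter lay below those of every unexposed and lower-dose litter, with medians of 16.61 without PFOS, 16.60 at the lower dose and 16.56 at the higher dose. The log2 sums spanned 16.58 to 16.64 in unexposed liver, 16.59 to 16.62 at the lower dose and 16.53 to 16.58 at the higher dose. The nearest litters were close, at 16.5821 with the higher dose and 16.5836 without PFOS. The mean log2 levels of the 12 markers overlapped, at 12.79 to 12.87, 12.80 to 12.92 and 12.68 to 12.84 at the rising doses. None of the 12 was called at the lower dose, and Apoa1 and Ahsg fell by 0.17 and 0.18 at the higher dose. Of the 6 erythroid markers, Hemgn, Klf1 and Ermap fell at the lower dose (by 0.41, 0.41 and 0.35) and none was called at the higher dose. Summed erythroid levels spanned 13.09 to 13.34 without PFOS, 12.89 to 13.03 at the lower dose and 12.96 to 13.38 at the higher. Of 7 macrophage markers Adgre1 fell at the higher dose, by 0.37, with sums of 11.19 to 11.65 without PFOS, 11.15 to 11.37 at the lower dose and 10.99 to 11.47 at the higher dose. Of 7 stellate cell markers Reln fell at both doses (by 0.28 and 0.44) and Dcn at the higher (by 0.31), with sums of 10.89 to 11.06 without PFOS, 10.74 to 10.86 at the lower dose and 10.53 to 10.80 at the higher dose. The stellate sums of unexposed liver did not overlap those of either exposed group. The mean log2 levels of the 7 stellate markers did overlap, at 7.24 to 7.40, 7.16 to 7.35 and 6.92 to 7.35 at the rising doses. The adipocyte markers Adipoq, Ucp1, Elovl3 and Lep lay below the filter in liver. Of 3 adipocyte markers tested, only Fabp4, a fatty acid carrier of fat cells and vessels, had positive changes, of 0.61 and 0.58. The others changed by -0.02 and -0.18 at the lower dose and by -0.12 and -0.14 at the higher. None of the 3 was called. The summed adipocyte markers spanned 8.75 to 9.40, 9.32 to 9.69 and 9.18 to 10.27 at the rising doses. Their mean log2 levels overlapped, at 4.09 to 4.32, 4.16 to 4.35 and 4.13 to 4.34. The part of other cell types in the members' changes was not tested, and in bulk tissue fewer cells of a type and less RNA per cell cannot be told apart.

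The genes whose liver pattern was most like that of a called member were found by the mean absolute difference of log2 levels over 15 liver arrays, each gene being set to its unexposed mean. For Plin2 these were Lpcat3, an enzyme that remodels membrane phospholipids (0.08), Hsdl2, a peroxisomal dehydrogenase-like protein (0.09), and Decr1, a mitochondrial enzyme for unsaturated fatty acids (0.09). For G0s2 they were Vnn1, a pantetheinase (0.19), Ten1, a telomere-binding protein (0.24), and Ephx1, the microsomal epoxide hydrolase (0.27). For Plin5 they were Atad3a, a mitochondrial membrane ATPase (0.09), Pex16, a factor of peroxisome formation (0.10), and Slc16a7, a monocarboxylate carrier (0.10). Vnn1 changed by 1.52 and 1.68 where G0s2 changed by 1.53 and 1.64, and Lpcat3 by 0.92 and 1.12 where Plin2 changed by 0.91 and 1.18. Such close changes follow from the choice of these genes by likeness on the same arrays.

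In lung no member was called at either dose, among 7 tested. Of 12897 genes, 0.0155% were called at the lower dose (2 genes, and 596 at an unadjusted p under 0.05) and 0.0543% at the higher dose (7 genes, 0.0388% higher and 0.0155% lower, and 891 at an unadjusted p under 0.05). Between the doses 0% were called by limma (296 at an unadjusted p under 0.05).

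Plin2 in lung read 9.48, 9.48, 9.59, 9.63 and 9.43 without PFOS, 9.54, 9.74, 9.64, 9.57 and 9.48 at the lower dose, and 9.65, 9.45, 9.60, 9.60 and 9.55 at the higher dose. The 3 groups overlapped, and the changes were 0.07 (95% interval -0.06 to 0.20) and 0.05 (-0.08 to 0.18). G0s2 in lung read 8.52, 8.83, 8.72, 8.60 and 8.77 without PFOS, 8.87, 8.68, 8.65, 8.49 and 8.78 at the lower dose, and 8.54, 8.72, 8.53, 8.60 and 8.65 at the higher dose. These also overlapped, with changes of 0.01 (95% interval -0.16 to 0.17) and -0.08 (-0.24 to 0.08). The upper bounds lie well below the liver changes of both genes.

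Plin5 in lung read 4.58, 4.64, 4.69, 4.77 and 5.04 at the lower dose, above all 5 unexposed litters, and 4.58, 5.09, 4.16, 4.76 and 5.03 at the higher dose. Neither change, 0.26 and 0.24 (limma adjusted p = 0.998 and 0.778), was called, and the second probe set gave -0.08 and 0.13. The lung changes of Pnpla2, Mgll, Plin3 and Cideb lay between -0.11 and 0.19 at both doses, all with overlapping litters. Plin4 and Cidec were too dim in lung to be tested.

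Cidea, which marks brown fat among the CIDE genes, was below the filter in lung, with 3 arrays, all of the higher dose, above the 40th percentile. It read 3.71, 3.69, 3.45, 3.83 and 3.73 without PFOS, 3.92, 3.52, 3.84, 3.81 and 3.80 at the lower dose, and 4.22, 3.76, 4.28, 4.14 and 4.53 at the higher dose. With no filter the change at the higher dose was 0.50 (SE 0.12, limma adjusted p = 0.306), in 5 of 5 litters and with overlapping ranges. The summed adipocyte markers in lung spanned 7.74 to 8.24, 7.83 to 8.36 and 8.05 to 9.43 at the rising doses, and were highest in litter 5 at the higher dose, the litter with the highest Cidea. By the mean log2 level of these markers, higher-dose litters 4, 1 and 5 were nearly equal (4.3956, 4.3934 and 4.3926), with litter 5 not the highest. Of those 8 markers Ucp1, Adipoq, Elovl3 and Lep lay below the filter, and none of the 4 tested was called. The summed cardiac markers, 10.87 to 13.56 without PFOS and 11.84 to 14.20 at the higher dose, were also highest in litter 5 at the higher dose. The summed skeletal muscle markers in lung spanned 7.31 to 8.78, 7.02 to 9.91 and 8.41 to 9.90 at the rising doses. All 5 tested of these 7 markers had positive changes at both doses, with medians of 1.11 and 1.26, and none was called. The part of adjoining tissue in Cidea was not tested.

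**Figure D4:**
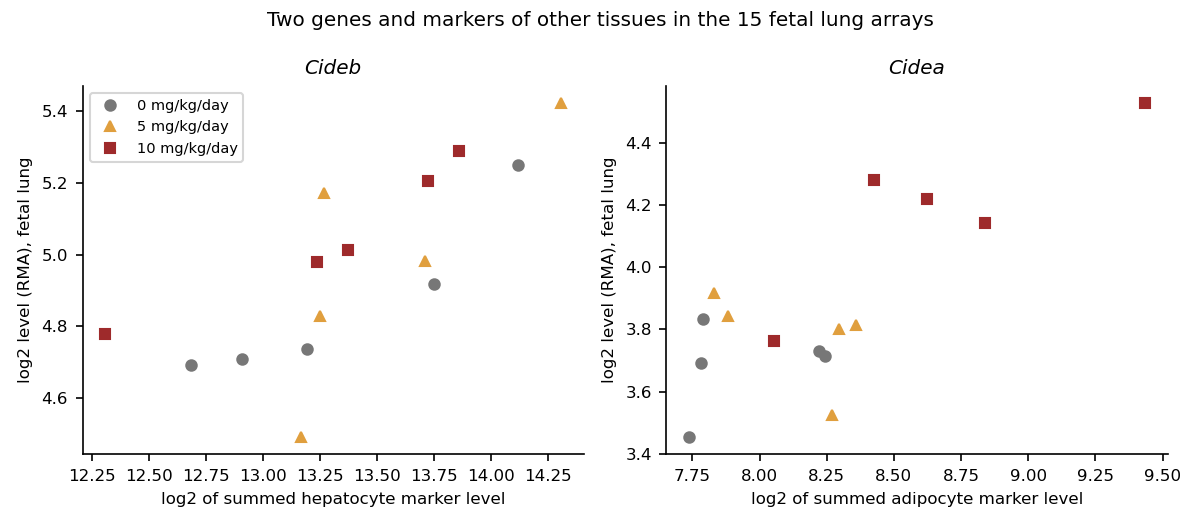
Log2 level on each of the 15 lung arrays, by dose, of Cideb against the log2 of the summed hepatocyte markers and of Cidea against that of the summed adipocyte markers. The highest Cideb value of each dose group is in the litter with the highest hepatocyte sum, and the highest Cidea value, 4.53, is in the litter with the highest adipocyte sum, 9.43. By the mean log2 level of the adipocyte markers that litter (4.3926) is not the highest (4.3956).

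The response itself differed between the tissues for 2 members. Over 13856 genes, 2.06% had a called difference between the liver and lung changes at the lower dose and 3.89% at the higher dose (1.57% and 2.22% with the liver change higher, 0.484% and 1.67% with it lower). For Plin2 the liver change exceeded that of lung by 0.84 (SE 0.11, limma adjusted p = 1.22e-05) and by 1.14 (SE 0.11, limma adjusted p = 3.80e-08). For G0s2 it did so by 1.52 (SE 0.18, limma adjusted p = 5.36e-06) and by 1.72 (SE 0.18, limma adjusted p = 3.40e-07). In both genes all 5 exposed liver litters were above the unexposed liver mean at each dose, while in lung 4 and 4 litters (Plin2) and 2 and 1 litters (G0s2) were above theirs. The other 6 tested members were not called, and for Plin5 the difference was 0.20 (95% interval -0.19 to 0.59) and 0.14 (-0.25 to 0.53). The tissue order of G0s2 thus turned with dose: in unexposed litters liver lay 0.46 below lung, and at both doses every liver litter was above every lung litter.

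Other genes of the same pathway were taken from 3 lists, whose choice came after earlier results of these data. Over all 13269 genes tested in liver, 4.26% were called higher and 1.81% lower at the lower dose. At the higher dose the shares were 5.3% and 5.22%, and a single fall in a list is near the latter. The counts below do not test the lists as sets. Triglyceride is built from glycerol phosphate by acyltransferases, phosphatidate phosphatases and diacylglycerol acyltransferases. Of 14 tested genes of this route, 4 rose in liver at each dose and 1 fell, at the higher, with median changes of 0.09 and 0.00. The first acyltransferases Gpat3 (0.81 and 0.80), Gpam (0.67 and 0.72) and Gpat4 (0.32 and 0.49) and the phosphatase Lpin2 (0.54 and 0.66) rose, and the next acyltransferase, Agpat2, fell by 0.37 at the higher dose. The final enzymes Dgat1 (0.20 and 0.07) and Dgat2 (-0.01 and -0.03) were not called. With the mean of its probe sets the Gpat4 change was 0.14 at the lower dose (limma adjusted p = 0.281), which is not called.

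Of 15 genes for droplet formation and other droplet proteins, 5 rose at the lower dose. At the higher dose 4 rose and 1 fell, with a median change of 0.09 at both doses. Hilpda, a droplet protein that like G0s2 inhibits Pnpla2, went from 6.02 ± 0.13 (SD, n = 5) to 7.24 ± 0.32 and 7.72 ± 0.14, changes of 1.22 (SE 0.13, limma adjusted p = 1.55e-05) and 1.70 (SE 0.13, limma adjusted p = 2.67e-07). Both inhibitors of the lipase thus rose, with no overlap between exposed and unexposed litters. Hsd17b11, a droplet-bound dehydrogenase, rose by 0.96 and 1.22, Acsl3, which activates fatty acids on growing droplets, by 0.56 and 0.69, and Fitm2, which helps droplets bud, by 0.56 and 0.56. Spg20 (spartin) rose by 0.23 at the lower dose, a call lost without exposed litter 3 or 5 (limma adjusted p = 0.0536 and 0.0537). Bscl2 (seipin), which shapes new droplets, fell by 0.27 at the higher dose.

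Of 11 other lipases and cofactors, 4 rose at each dose and none fell, with median changes of 0.20 and 0.28. Abhd6, a second monoacylglycerol lipase, went from 6.45 ± 0.16 (SD, n = 5) to 8.03 ± 0.25 and 8.44 ± 0.28, changes of 1.59 and 1.99 (SE 0.13 each, limma adjusted p = 2.44e-06 and 1.44e-07), where Mgll was not called. Ces1d, a carboxylesterase that acts on stored triglyceride in hepatocytes, rose by 1.08 and 1.17 and Pnpla8, a phospholipase of the Pnpla2 family, by 0.40 and 0.49. Ddhd2 rose by 0.30 and 0.41, and its call at the lower dose was lost without exposed litter 1, 2 or 5 and without unexposed litter 1, 3 or 4 (6 of 10 such fits, limma adjusted p between 0.0807 and 0.115). With the mean of its probe sets Ddhd2 was called at neither dose (0.15 and 0.32, limma adjusted p = 0.468 and 0.0575), and Pnpla8 was not called at the lower dose (0.26, limma adjusted p = 0.0578). Lipe, hormone-sensitive lipase (0.14 and 0.17), and Abhd5, the activator of Pnpla2 (0.20 and 0.28), were not called. Without the 3 unexposed litters high in stomach markers Gpat3, Gpat4, Lpin2, Spg20, Pnpla8 and Ddhd2 lost their calls at the lower dose, as did Gpat3 and Bscl2 at the higher dose. Only unexposed litters 1 and 4 remained in that fit. The lower-dose changes of Gpat3, Gpat4, Lpin2, Spg20, Pnpla8 and Ddhd2 were then 0.68, 0.34, 0.56, 0.25, 0.48 and 0.39. Without unexposed litters 4 and 5 Spg20 and Ddhd2 lost theirs at the lower dose and Bscl2 at the higher.

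In lung none of the 14, 14 and 10 tested genes of the 3 lists was called at either dose, by limma. The smallest unadjusted p in lung belonged to Lpin1 at the lower dose (change 0.35, limma adjusted p = 0.978) and to Lpl at the higher dose (change 0.32, limma adjusted p = 0.545). At the lower dose the change in liver exceeded that in lung for 3 of the synthesis genes, 4 of the droplet genes and 2 of the lipases, of which Gpat4, Lpin2 and Hsd17b11 lost the call in 11, 16 and 7 of 20 fits without 1 array. These 3 genes also lost it with the mean of their probe sets (limma adjusted p = 0.356, 0.142 and 0.198), and Gpat4 and Lpin2 lost it with the replicate block (0.0555 and 0.0801). At the higher dose the change in liver exceeded that in lung for 3 of 14 synthesis genes, 4 of 15 droplet genes and 4 of 11 lipases, among them Abhd6 by 1.90, Hilpda by 1.67, Ces1d by 1.09, Hsd17b11 by 1.06 and Gpam by 0.84. With the mean of their probe sets Gpat4, Pnpla8 and Ddhd2 were not called in this comparison (limma adjusted p = 0.0786, 0.156 and 0.154).

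**Figure D5:**
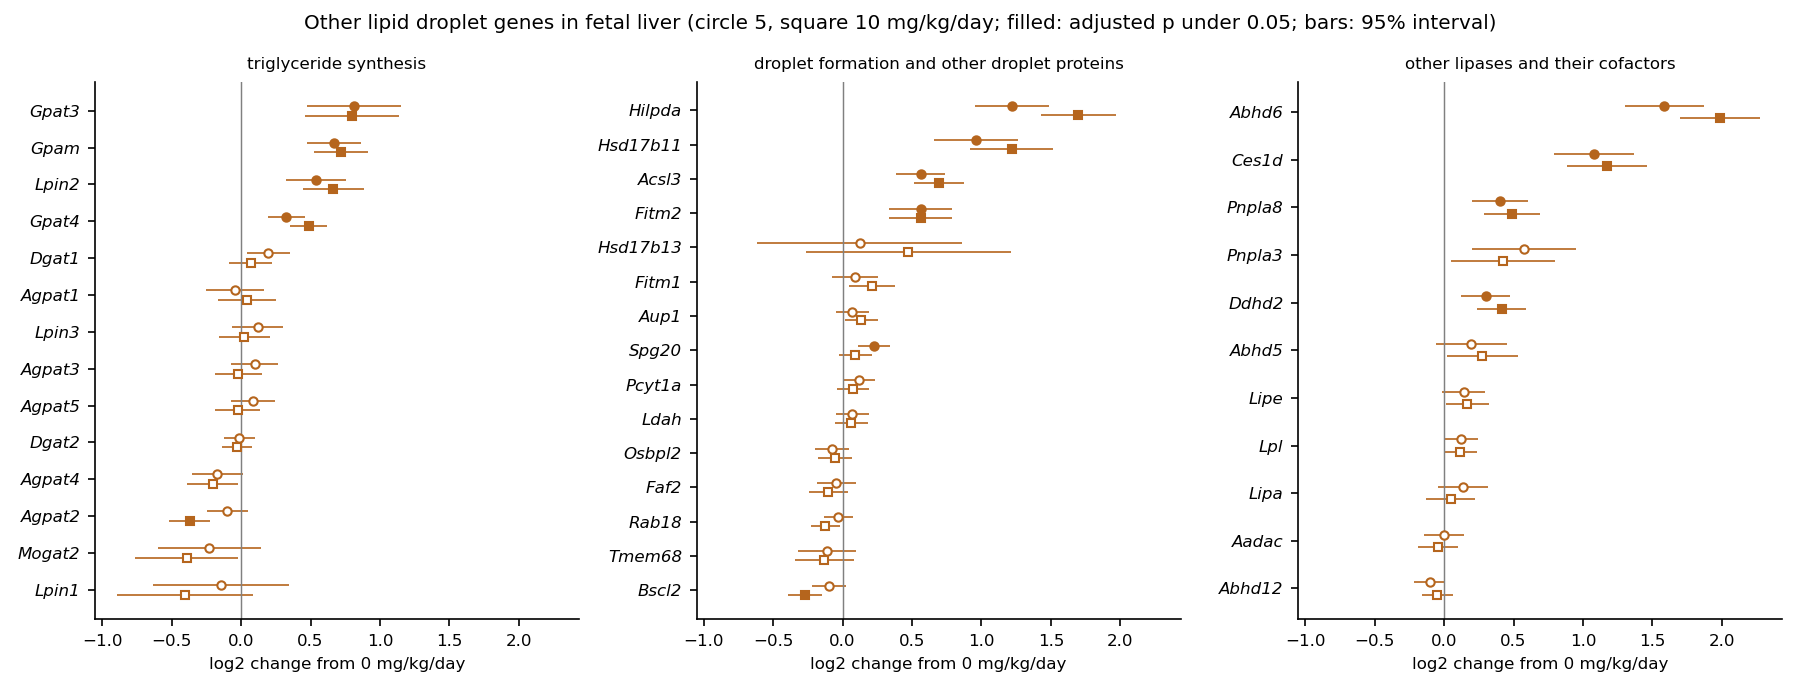
Change in liver on the log2 scale with 95% intervals, at both doses, for the tested genes of the 3 pathway lists; filled points are called. Abhd6 and Hilpda have the largest changes among these genes (1.99 and 1.70 at the higher dose).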

How the data were processed

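Levels in fetal lung and liver came from 30 arrays of the Affymetrix mouse genome array, 1 litter each. The deposited values are log2 levels that the authors made with RMA, per the submitters' processing notes; the notes used here give no version. Of 45101 probe sets, 34945 had a single gene symbol, 932 had several and 9160 had none, and 64 were array controls; genes were taken from single symbols only, 1 probe set per gene.

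Dim genes were left out as described. Fits used limma 3.58.1 (R 4.3.3), on the 15 arrays of 1 tissue or, to compare tissues, on all 30, with no covariate. The fits were tested on simulated data. The 10 members and all lists were chosen with earlier results of these data known. Named genes are all members, up to 4 called genes per list (or 2 by smallest p), the 3 most similar genes per called member, and defining markers. Dgat1, Dgat2, Lipe, Abhd5, Spg20, Bscl2 and Agpat2 fall outside that rule and were named after their values were seen. Summed marker levels are log2 of summed linear values. Nothing says that replicate numbers mark litters shared between the tissues. Alternatives were filters, normalizations, probe set means, variance models, array weights, other sets of arrays, a replicate block and leaving out litters.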

Additional observations from a re-analysis of the deposited data

Results flagged for a closer look

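Of the 60 groups of 5 litters (10 genes in 6 groups), 1 held a litter whose gap to the next was large for the group's range: Cidec read 1.96 in unexposed lung litter 4, against 2.50 to 2.69 in the other 4. Chance flags about 1 in 20 groups, and Cidec lay below the 40th percentile on every array.

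The changes of Plin2 and G0s2 were larger in liver than in lung, by the test of the difference itself. For Plin2 the difference was 0.84 at 5 mg/kg/day, with 1.14 at the higher dose. For G0s2 it was 1.52 at 5 mg/kg/day, with 1.72 at the higher dose.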

How the results depend on the processing

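Of 69 member values tested, 65 stayed on the same side of the threshold under every alternative. The exceptions were the Plin5 calls in liver at both doses, Cideb in liver at 5 mg/kg/day, called with the stricter filter (limma adjusted p = 0.0475) and with trended, robust variances (0.0423), and Pnpla2 between tissues. At 10 mg/kg/day Plin5 also lost its call with no filter (0.0618), with only both groups compared (0.0554) and with both tissues in 1 fit (0.0636). The Plin2 change in liver ranged from 0.87 to 0.98 and from 1.14 to 1.25, and that of G0s2 from 1.43 to 1.82 and from 1.55 to 1.93. Of 192 values of members and other named genes, 159 kept their side throughout; the difference of Gpat4 between unexposed tissues, not called, turned to -0.19 with the mean of its probe sets.

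Same-numbered lung and liver arrays had deviations that correlated at r from 0.06 to 0.12 without PFOS (2 of 5 over 0.1), from 0.0011 to 0.22 at 5 mg/kg/day (3 of 5) and from 0.08 to 0.19 at 10 mg/kg/day (4 of 5). All 15 were above 0, whereas same-numbered arrays of different doses had r from -0.25 to 0.31. As not all 15 were over 0.1, numbers were not taken to pair samples, and whether these arrays share litters is not known. No fit paired lung and liver within a dose alone, so the main comparisons between tissues took these arrays as independent. The replicate block gave arrays of the same number a shared term across all doses of a fit. Litters of different doses came from different dams, so the block is no test of shared litters. With the replicate block, Plin2 changed by 0.91 and 1.18 in liver (limma adjusted p = 2.29e-04 and 1.97e-05), G0s2 kept its calls, and Plin5 had adjusted p = 0.00484 and 0.00901. The block ended the call of Ddhd2 in liver at 5 mg/kg/day (0.0864), and those of Gpat4 (0.0555) and Lpin2 (0.0801) for the liver change minus the lung change at that dose.

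Over all genes, leaving out unexposed liver litters 2, 3 and 5 took the called genes in liver from 805 to 295 and from 1395 to 540. Only litters 1 and 4 of unexposed liver then remained. The 285 genes whose changes differed between tissues at the lower dose went to 175. Over all alternatives, calls ranged from 0 to 5 between the doses in liver (1 as reported), from 1 to 4 and from 3 to 14 in lung at the lower and higher dose (2 and 7 as reported), and from 0 to 1 between the doses in lung (0 as reported).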
